A study of Mus musculus with 12 samples.

Results

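Between embryonic days E13.5 and E15.5 the mouse fetal testis changed in ways that both strains of the series shared, and this step is described here across genes. It was defined by the array titles alone, as the 4 arrays of E15.5 against the 4 arrays of E13.5, with strain kept as a factor. These are 8 of the 12 arrays of the series. Total RNA of male genital ridges and testes had been hybridised to Affymetrix mouse expression arrays, which hold several short-oligonucleotide probe sets for many genes. The 4 groups are 129/Sv embryos at E13.5 and at E15.5, and embryos of the chromosome substitution strain 129.MOLF-Chr 19 (called M19) at E13.5 and at E15.5, with 2 arrays each. In M19, MOLF sequence replaces chromosome 19 of the 129 genome, and testicular germ cell tumours are common in males of that strain. No group received a treatment, so the groups differ in stage and strain. The other 4 arrays are E17.5 testes of the same strains, which entered the model and show where a gene went next.

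The labels describe pools of 40 testis pairs serving 2 arrays. If the pair of arrays in a group came from a single pool, the p-values reflect technical spread alone. Whole testes were used, so for every gene below, fewer cells of a type and less RNA per cell cannot be told apart. The tissue label was checked against defining markers over the 8 arrays. The germ cell genes Ddx4 and Dazl lay at 10.59 to 12.45 and 11.79 to 12.47 on the log2 scale. The Sertoli cell genes Sox9 and Amh lay at 10.18 to 10.75 and 9.89 to 11.85, and the Leydig cell genes Star and Cyp11a1 at 9.87 to 12.15 and 10.46 to 12.82. The Y-linked Eif2s3y lay at 10.02 to 10.76 and Xist, the RNA of the inactive X, at 7.94 to 8.25. The markers of other tissues set 1 group apart: epidermal genes averaged 10.49 and 10.54 on the 2 arrays of 129/Sv at E15.5, and 8.37 to 8.71 on the other 10. Skeletal muscle genes averaged 9.01 and 8.95 there against 7.61 to 8.06, and cartilage and tendon genes 8.93 and 9.14 against 7.86 to 8.19. Array 1 of 129/Sv at E13.5 had an 18S rRNA control signal of 9.69, against 6.88 to 8.38 on the other arrays. Array medians ran from 8.1 to 8.27.

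At these ages the male germ cells, now enclosed in testis cords with Sertoli cells, stop dividing, give up the expression of pluripotency genes and become prospermatogonia. Prospermatogonia reset DNA methylation across the genome, and small RNAs bound to Piwi proteins (piRNAs) direct that methylation to transposons. Outside the cords, fetal Leydig cells make androgens from cholesterol, and peritubular cells acquire contractile proteins. The mesonephros, which lies against the gonad, gives rise to the ducts of the male tract. In the blood, red cells of the yolk sac, which carry embryonic globins, give way to red cells of the fetal liver.

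A step is the E15.5 mean minus the E13.5 mean on the log2 scale, averaged over the strains, with its standard error (SE) from limma. A gene was called where its Benjamini-Hochberg adjusted p over all 45037 probe sets was under 0.05. A called step was counted as shared when the strains had the same sign, the smaller strain step was at least 50% of the larger, and all 4 arrays of one stage lay above all 4 of the other. Of 18193 genes, each represented by the brightest of its probe sets, 2605 (14.3%) were called. Of these, 1783 (9.8%) rose and 822 (4.52%) fell, and the median step of all genes was 0.01. The counts of each list below are to be read beside these shares of all genes. The shared rule kept 2099 genes (11.5%), of which 1444 (7.94%) rose and 655 (3.6%) fell. Over probe sets, 4950 (11.0%) were called and 3898 (8.66%) were shared. These counts depend on single arrays. Without array 1 or array 2 of M19 at E13.5, 2934 or 2863 probe sets were called and 2487 or 2440 were shared, and without array 1 of M19 at E15.5, 3288 were called.

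Large shared changes were more often rises. By the shared rule, 263 genes (1.45%) rose by at least 1 log2 unit and 75 (0.412%) fell by as much. At 2 log2 units there were 46 and 18, and at 3 there were 12 and 4. In 129/Sv alone 1146 genes (6.3%) were called, 811 (4.46%) of them higher and 335 (1.84%) lower. In M19 alone 1347 (7.4%) were called, 1045 (5.74%) higher and 302 (1.66%) lower. The 807 genes (4.44%) called in each strain in the same direction were 70.4% of the 129/Sv genes and 59.9% of the M19 genes. The step itself differed between strains in 35 genes (0.192%). Over probe sets, 2072 (4.6%) were called in 129/Sv and 2461 (5.46%) in M19, and the step differed in 60 (0.133%). Leaving out array 1 or 2 of 129/Sv at E15.5 gave 1234 or 1230 for 129/Sv. For M19 the count was 979 or 938 without array 1 or 2 of M19 at E13.5, and 1007 or 1291 without array 1 or 2 of M19 at E15.5. Without the same 4 arrays in turn the step differed in 29, 31, 35 or 28 probe sets, and in 37 without array 2 of 129/Sv at E15.5.

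**Figure D1:**
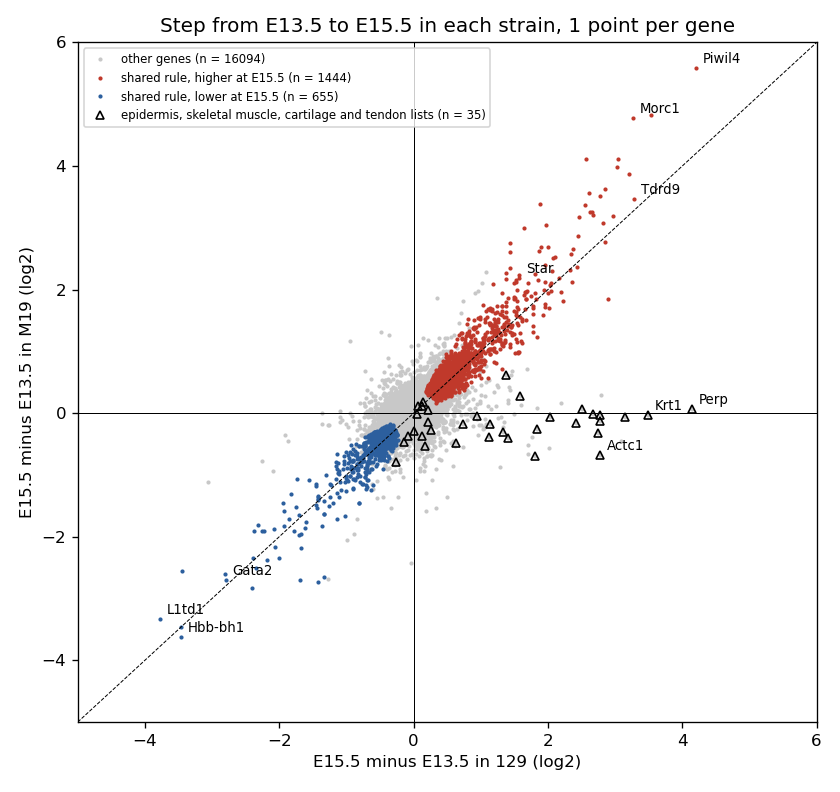
Each point is 1 gene, with its E15.5 minus E13.5 step in 129/Sv on the x axis and in M19 on the y axis (log2, 2 arrays per group). Genes of the shared rule (1444 higher in red, 655 lower in blue) lie around the dashed line of equal steps because that rule selects them so. The 35 skin, muscle, cartilage and tendon genes (triangles) lie along the x axis, with a median step of 1.13 in 129/Sv and -0.16 in M19.

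The 12 largest shared rises and falls named here are those among genes whose higher stage mean exceeded 8.17, the median of all probe sets. Of the 12 rises, Piwil4, Nxf2, Morc1 and Tdrd9 belong to the germ line lists and the other 8 to no list. Piwil4, the Piwi protein that carries piRNAs into the nucleus, lies on chromosome 9 at chr9:14701776-14740672 (GRCm38.p6). Its signal at E13.5 was 6.75 and 7.65 in 129/Sv and 5.57 and 5.66 in M19, and at E15.5 it was 11.27 and 11.54 in 129/Sv and 11.25 and 11.14 in M19. All 4 late arrays stood far above all 4 early ones, and the strains lay further apart at E13.5 than at E15.5. The step of Piwil4 was 4.89 ± 0.20 (SE, 4 arrays per stage; limma adjusted p = 8.4e-08), or 29.7-fold. A dimmer probe set of Piwil4 gave 3.35 ± 0.10.

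Nxf2, an X-linked RNA export factor of germ cells, had 8.02 and 8.26 in 129/Sv and 6.75 and 6.82 in M19 at E13.5. At E15.5 Nxf2 had 11.65 and 11.71 in 129/Sv and 11.74 and 11.49 in M19. Its step was 4.18 ± 0.09 (limma adjusted p = 2.5e-09). Morc1, a GHKL ATPase needed to silence transposons, had 7.98 and 8.47 in 129/Sv and 6.75 and 6.80 in M19 at E13.5, and between 11.40 and 11.60 on the 4 arrays of E15.5. The Morc1 step was 4.02 ± 0.11 (limma adjusted p = 9.6e-09). For both genes M19 started lower and reached the same range, so the M19 step was larger, by 1.29 ± 0.18 for Nxf2 (limma adjusted p = 0.017) and 1.52 ± 0.22 for Morc1 (0.028).

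Tdrd9, a Tudor-domain helicase of the piRNA pathway, rose by 3.37 ± 0.09 (limma adjusted p = 8.3e-09), from between 7.31 and 8.04 to between 10.71 and 11.37. The steps were 3.28 in 129/Sv and 3.46 in M19. The rest of the 12 largest rises were Tktl1, a transketolase-like gene, at 3.58 ± 0.13, Afp, the alpha-fetoprotein, at 3.53 ± 0.20, Gm364 at 3.51 ± 0.16, Dcaf8l at 3.34 ± 0.23, Rrad, a small GTPase, at 3.24 ± 0.11, Shcbp1l at 3.14 ± 0.17, Tex13b at 3.09 ± 0.25 and Tmem232 at 3.08 ± 0.11. Afp rose from between 6.01 and 7.11 to between 9.56 and 10.12, and its E17.5 means were 10.89 in 129/Sv and 10.71 in M19. Of the 4 further probe sets of Afp, 3 were called higher (2.04 to 3.43) and the dimmest was at 0.07. Dimmer probe sets of Tktl1 rose by 2.85 and 1.38, and one of Tex13b by 1.09. Rrad lay between 10.50 and 10.66 at E15.5 and at means of 8.69 and 9.10 at E17.5.

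The filter on level leaves out Tdgf1, which fell by 3.01 by the shared rule and is described with the pluripotency genes. Of the 12 falls that passed it, L1td1 had the largest. L1td1, an RNA-binding protein of pluripotent cells that derives from a LINE-1 element, lies at chr4:98726754-98738486. It had 9.52 and 9.94 in 129/Sv and 10.25 and 10.32 in M19 at E13.5, and 5.87 and 6.05 in 129/Sv and 6.97 and 6.91 in M19 at E15.5. The early arrays were all high and the late ones all low, and L1td1 fell by 3.56 on the log2 scale (SE 0.10; limma adjusted p = 9.6e-09). Hbb-bh1 and Hba-x, a pair of embryonic globins, fell by 3.54 and 2.71 and are described with the blood genes.

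Gata2, a transcription factor of blood progenitors and urogenital mesenchyme, had 11.51 and 11.58 in 129/Sv and 11.30 and 11.33 in M19 at E13.5, and 8.54, 8.94, 8.63 and 8.61 at E15.5 in the same order. Gata2 fell by 2.75 (SE 0.13; limma adjusted p = 2.2e-07), and at E17.5 both strains had a mean of 8.77. Shisa3, an inhibitor of Wnt and FGF receptors, fell by 3.46, from between 9.01 and 9.37 to between 5.49 and 6.13. Moxd1, a relative of dopamine beta-hydroxylase, fell by 2.61 and Cldn8, a tight junction claudin, by 2.42. The matrix proteins Ecm1 and Tgfbi fell by 2.37 and 2.18. The transcription factor genes Foxd1 and Hoxa9 fell by 2.28 and 2.19, and a dimmer probe set of Hoxa9 stood at -0.39. Mtm1, an X-linked phosphoinositide phosphatase, fell by 2.14, a second probe set by 2.11, and another, dim one stood at 0.16. The 24 genes of these 2 groups kept their call in all 12 leave-one-array-out fits. They were chosen for large steps on the same arrays, so this adds little to that choice.

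**Figure D2:**
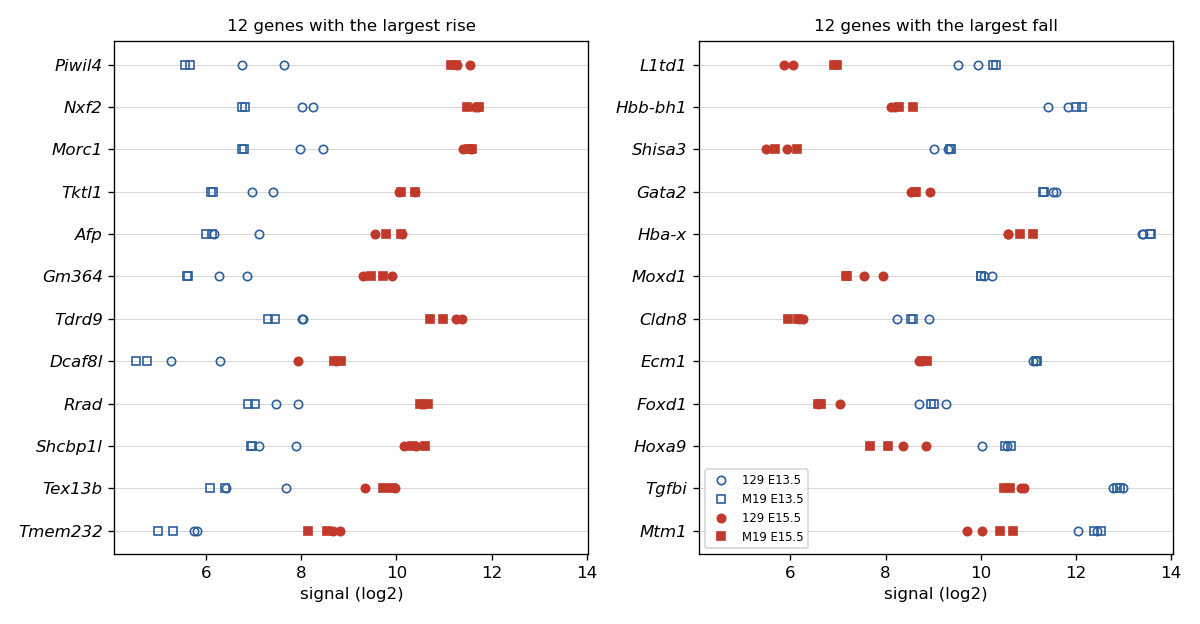
Signal on each of the 8 arrays (x axis, log2) for the 12 genes with the largest shared rise and the 12 with the largest shared fall among genes whose higher stage mean exceeded 8.17 (rows), open blue symbols for E13.5 and filled red symbols for E15.5, circles for 129/Sv and squares for M19. In each row all 4 arrays of one stage lie above all 4 of the other, which the shared rule required of these genes. On the left the M19 arrays of E13.5 lie at the low end, as for Piwil4 at 5.57 and 5.66.

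Most genes that silence transposons in the male germ line rose. Of 20 measured genes 19 rose and none fell, against 9.8% and 4.52% of all genes, and the median step was 1.36. By the shared rule 13 rose. In M19 alone 19 were called higher, and in 129/Sv alone 14. Beside Piwil4, its partner Piwil2, which loads primary piRNAs, had 9.03 and 9.34 in 129/Sv and 8.71 and 8.82 in M19 at E13.5, and between 11.54 and 11.73 at E15.5. Piwil2 rose by 2.66 ± 0.11 (limma adjusted p = 8.3e-08). Piwil1, the Piwi protein known from later spermatogenesis, rose by 1.00 ± 0.09 and ended between 7.90 and 8.13.

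Mael, a component of the germ granules where piRNAs are made, had 10.14 and 10.65 in 129/Sv and 9.46 and 9.45 in M19 at E13.5, and between 12.80 and 12.98 at E15.5. The 4 late arrays differed little among themselves, and Mael rose by 2.96 ± 0.11 (limma adjusted p = 4.2e-08). Gpat2, an outer mitochondrial membrane protein needed for piRNA production, rose by 2.18 ± 0.09. The germ granule scaffold genes Tdrd7, Asz1 and Tdrd1 rose by 1.83 ± 0.09, 1.78 ± 0.12 and 1.28 ± 0.12. Exd1 rose by 1.67 ± 0.10, the helicase gene Mov10l1, which feeds piRNA precursors, by 1.25 ± 0.10, and Gtsf1, a cofactor of Piwi proteins, by 1.13 ± 0.12 on its brightest probe set and by 3.67 ± 0.11 on the other.

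A further 6 genes of this list rose but were not shared, in each case with a smaller step in 129/Sv. They were Tdrd5 (0.92 in 129/Sv and 1.95 in M19), Tex19.1 (0.42 and 0.86), Henmt1 (0.36 and 0.89), Tdrd12 (0.16 and 0.72), Tdrkh (0.23 and 0.56) and Pld6 (0.21 and 0.48). Rnf17, a Tudor-domain gene, was at 0.28 ± 0.11 on its brightest probe set, which did not pass the test, while its 3 other probe sets rose by the shared rule (2.01, 0.57 and 0.35; limma adjusted p = 4.8e-07, 0.017 and 0.025). At E17.5, Tdrd9, Piwil2 and Mael stayed near their E15.5 level, with means of 11.34 and 11.58, 11.53 and 11.52, and 12.82 and 12.80 in 129/Sv and M19. Tdrd5, Asz1 and Exd1 were lower than at E15.5, with E17.5 means of 9.20 and 9.23, 9.54 and 9.48, and 9.28 and 9.28.

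Promoters of the transposon control genes that rose by the shared rule were searched for CACGTG, an E-box that reads the same on both strands, in the 250 bases before each start site of the RefSeq table (GRCm38.p6). Of the 13 genes 11 had an entry, and 5 of these (45.5%) held the motif. It was present in 12.9% of the 1149 shared risers with an entry, in 8.35% of the 515 shared fallers, in 8.73% of the 14452 measured genes with an entry, and in 6.86% of all 27025 genes in the table. The 5 sequences are shown because they belong to genes that moved together, with the motif in capitals and the base before the start site last. Mael is at chr1:166238745-166238994 on the minus strand, and the motif begins at -223 from the start. Piwil1 is at chr5:128735996-128736245 on the plus strand with the motif at -179 and -154, and Tdrd9 at chr12:111971309-111971558 on the plus strand with the motif at -165 and -95. Mov10l1 is at chr15:88982744-88982993 on the plus strand with the motif at -246, and Tdrd1 at chr19:56825959-56826208 on the plus strand with the motif at -11.
Mael: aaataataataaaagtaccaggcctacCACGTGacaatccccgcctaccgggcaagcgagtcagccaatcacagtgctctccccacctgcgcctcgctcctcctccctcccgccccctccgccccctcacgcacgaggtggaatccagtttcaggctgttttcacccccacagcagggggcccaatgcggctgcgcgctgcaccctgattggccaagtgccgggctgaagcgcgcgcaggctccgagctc
Piwil1: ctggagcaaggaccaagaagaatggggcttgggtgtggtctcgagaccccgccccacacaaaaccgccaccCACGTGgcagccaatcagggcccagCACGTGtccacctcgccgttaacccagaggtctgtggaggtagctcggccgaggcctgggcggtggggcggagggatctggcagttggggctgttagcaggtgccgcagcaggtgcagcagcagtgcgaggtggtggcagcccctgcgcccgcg
Tdrd9: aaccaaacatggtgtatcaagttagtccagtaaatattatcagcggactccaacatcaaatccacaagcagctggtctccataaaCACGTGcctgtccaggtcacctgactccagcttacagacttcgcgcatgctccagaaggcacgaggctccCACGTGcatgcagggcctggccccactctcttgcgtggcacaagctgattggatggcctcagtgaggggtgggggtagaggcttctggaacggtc
Mov10l1: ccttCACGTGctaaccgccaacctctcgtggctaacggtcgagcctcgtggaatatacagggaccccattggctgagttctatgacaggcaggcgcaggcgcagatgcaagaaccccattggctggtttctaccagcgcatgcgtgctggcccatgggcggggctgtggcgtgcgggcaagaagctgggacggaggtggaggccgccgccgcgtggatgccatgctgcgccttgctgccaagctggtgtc
Tdrd1: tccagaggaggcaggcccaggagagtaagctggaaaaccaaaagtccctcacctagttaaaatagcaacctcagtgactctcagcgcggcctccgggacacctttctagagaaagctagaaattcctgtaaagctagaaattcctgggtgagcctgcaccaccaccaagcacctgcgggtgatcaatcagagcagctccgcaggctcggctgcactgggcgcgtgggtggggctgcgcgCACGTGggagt
A match is a string of letters and not a measured binding site. Piwil4, Gpat2 and Tdrd7, which rose by 4.89, 2.18 and 1.83, had entries without the motif.

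Of 14 measured genes of germ cell identity 8 rose and 3 fell, all 11 by the shared rule, with Nxf2 and Mael among the rises. The median step was 0.89. Ddx4, the Vasa RNA helicase, had 10.61 and 11.11 in 129/Sv and 10.59 and 10.66 in M19 at E13.5, and 12.09, 12.40, 12.45 and 12.40 at E15.5, and rose by 1.59 ± 0.14 (limma adjusted p = 2.9e-05). Dazl, an RNA-binding regulator of germ cells, was at -0.18 ± 0.10 (limma adjusted p = 0.35). Dnd1, whose product protects germ cell mRNAs and whose loss causes testicular tumours in 129/Sv mice, rose by 1.31 ± 0.08. The X-linked Taf7l, a germ cell subunit of the basal transcription machinery, rose by 2.64 ± 0.19, the ADP/ATP carrier gene Slc25a31 by 1.82 ± 0.15 and Tex101 by 1.56 ± 0.09. Alpl rose by 0.47 ± 0.09 (limma adjusted p = 0.0061), and Tfap2c stood at -0.15 ± 0.13 and was not called. Kit, the receptor tyrosine kinase of migrating germ cells, fell by 0.91. Prdm1, the repressor of the somatic programme, fell by 0.86, and Pecam1, also an endothelial gene, by 0.47. Pecam1 lost its call in 2 of 12 leave-one-array-out fits.

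Of the genes that write or erase DNA methylation, 1 of 13 measured rose and 1 fell, against 9.8% and 4.52% of all genes. In all, 4 were called with limma's trend option or with each gene's probe sets averaged. Dnmt3l, the cofactor that directs new methylation in prospermatogonia, had 8.15 and 7.97 in 129/Sv and 7.54 and 7.55 in M19 at E13.5. It had 10.96 and 10.87 in 129/Sv and 10.38 and 10.25 in M19 at E15.5, a rise of 2.81 ± 0.08 (limma adjusted p = 1.4e-08) that was nearly equal in both strains (2.85 and 2.77). Tet1, which oxidises methylcytosine, had between 9.85 and 10.37 at E13.5 and between 8.55 and 9.58 at E15.5, and fell by 1.02 (SE 0.19; limma adjusted p = 0.0056). Of the dimmer probe sets of Tet1, one fell by 1.04 (limma adjusted p = 0.0037), and others stood at -0.22 and -0.07 and were not called. The de novo methyltransferase genes Dnmt3a and Dnmt3b stood at -0.10 ± 0.11 and 0.31 ± 0.12, and the maintenance genes Dnmt1 and Uhrf1 at -0.22 ± 0.08 and -0.08 ± 0.11. None of these 4 passed the test on its brightest probe set. For Dnmt3a the probe sets disagree: of its 4 others, 2 rose by the shared rule, by 1.09 ± 0.11 and 1.12 ± 0.09 (limma adjusted p = 7.8e-05 and 1.4e-05), and 2 were not called (-0.01 and 0.29).

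Genes known from meiosis rose in part, although male germ cells do not enter meiosis at this age. Of 20 measured genes 11 rose and none fell, 8 by the shared rule, with a median step of 0.52. With dim probe sets left out, 6 were called. Sycp3, of the axis of meiotic chromosomes, had 8.80 and 9.21 in 129/Sv and 8.45 and 8.71 in M19 at E13.5, and 10.27, 10.62, 11.25 and 11.11 at E15.5. Sycp3 rose by 2.02 ± 0.15 (limma adjusted p = 6.2e-06), and Sycp2, its partner in the axis, by 1.90 ± 0.13. Sycp1, which zips the axes together, rose by 1.57 ± 0.08 with steps of 2.11 in M19 and 1.02 in 129/Sv (limma adjusted p of the difference 0.026). Meioc rose by 1.27 ± 0.17, the cohesin gene Stag3 by 0.96 ± 0.08 and Spo11, which makes the DNA breaks of meiosis, by 0.81 ± 0.08. Stra8, the gatekeeper of meiotic entry, was at 0.28 ± 0.12 (limma adjusted p = 0.18) and the cohesin gene Smc1b at 0.03 ± 0.09. At E17.5 Sycp3 had means of 9.83 and 9.71 and Sycp1 of 7.84 and 7.90, below E15.5. These later differences were not tested.

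Pluripotency genes parted ways. Of 22 measured genes 3 rose and 9 fell, and by the shared rule 1 rose and 3 fell, with a median step of -0.19. In M19 alone 2 rose and 4 fell, and in 129/Sv alone 2 rose and 9 fell. The shared falls were L1td1, Tdgf1 and Zfp42. Tdgf1, the co-receptor through which Nodal signals, had 7.19 and 8.12 in 129/Sv and 8.55 and 8.46 in M19 at E13.5, and 3.75 and 4.65 in 129/Sv and 6.01 and 5.89 in M19 at E15.5. It fell by 3.01 (SE 0.23; limma adjusted p = 9.7e-06). At E17.5 the mean of Tdgf1 was 4.95 in 129/Sv and 7.88 in M19. Zfp42, the Rex1 gene, fell by 0.82 (SE 0.13).

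Several core regulators fell in the mean of the strains without meeting the shared rule. Nanog fell by 2.10 in 129/Sv and by 0.93 in M19, and the difference of these steps had a limma adjusted p of 0.58. Sox2 fell by 1.92 in 129/Sv and stood at -0.36 in M19 (adjusted p of the difference 0.18). Dppa5a, a KH-domain protein made in pluripotent cells, had 12.67 and 12.70 in 129/Sv and 12.82 and 12.83 in M19 at E13.5, then 10.43 and 10.44 in 129/Sv and 12.17 and 11.93 in M19. Its steps of -2.25 and -0.77 differed (limma adjusted p of the difference 0.0034). Pou5f1, the Oct4 gene, was at 0.39 ± 0.11 (limma adjusted p = 0.045), and the call was lost in 11 of 12 leave-one-array-out fits.

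Dppa4 ran against the others. This chromatin protein gene had 10.94 and 11.05 in 129/Sv and 10.62 and 10.59 in M19 at E13.5, between 12.42 and 12.54 at E15.5, and means of 11.06 and 11.43 at E17.5. The rise of Dppa4 was 1.69 ± 0.08 (limma adjusted p = 1.7e-07). Klf4 rose by 1.03 ± 0.16 in the mean of the strains, by 1.45 in 129/Sv and 0.61 in M19, and was not shared. The M19 step of Klf4 was not called by itself (limma adjusted p = 0.19).

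Nodal, a ligand that germ cells of the fetal testis make and answer to while they are pluripotent, fell together with its feedback inhibitors Lefty1 and Lefty2. Of 17 measured genes of Nodal and activin signalling 2 rose and 7 fell, and by the shared rule 2 and 5, with Tdgf1 among the falls. The median step was -0.14. The ligand gene Nodal fell by 0.66 (SE 0.09), from between 8.05 and 8.37 to between 7.35 and 7.78. Lefty1, a target of Nodal that blocks it, had 10.38 and 10.16 in 129/Sv and 10.42 and 10.27 in M19 at E13.5, and 9.43, 9.32, 9.39 and 9.52 at E15.5, and fell by 0.89 in both strains (SE 0.09; limma adjusted p = 4.8e-05). Lefty2 fell by 0.81 and Smad3, which carries the signal to the nucleus, by 0.47. Cer1, another inhibitor of Nodal, was at 0.12 ± 0.12 on its brightest probe set and was not called. Its dimmer probe set rose by the shared rule, by 0.38 ± 0.11 (limma adjusted p = 0.042). Foxh1 and Acvr2b were also not called on their brightest probe sets, at -0.03 and -0.21. A dimmer one of each fell by the shared rule, at -0.76 and -0.58 (limma adjusted p = 0.00012 and 0.00091). Another of each, at -0.01 and -0.22, was not called. The activin subunit genes Inhba and Inhbb rose by 1.38 ± 0.09 and 0.61 ± 0.11 on their brightest probe sets. The dimmer probe set of each was not called, at 0.02 ± 0.13 for Inhba and 0.12 ± 0.12 for Inhbb.

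**Figure D3:**
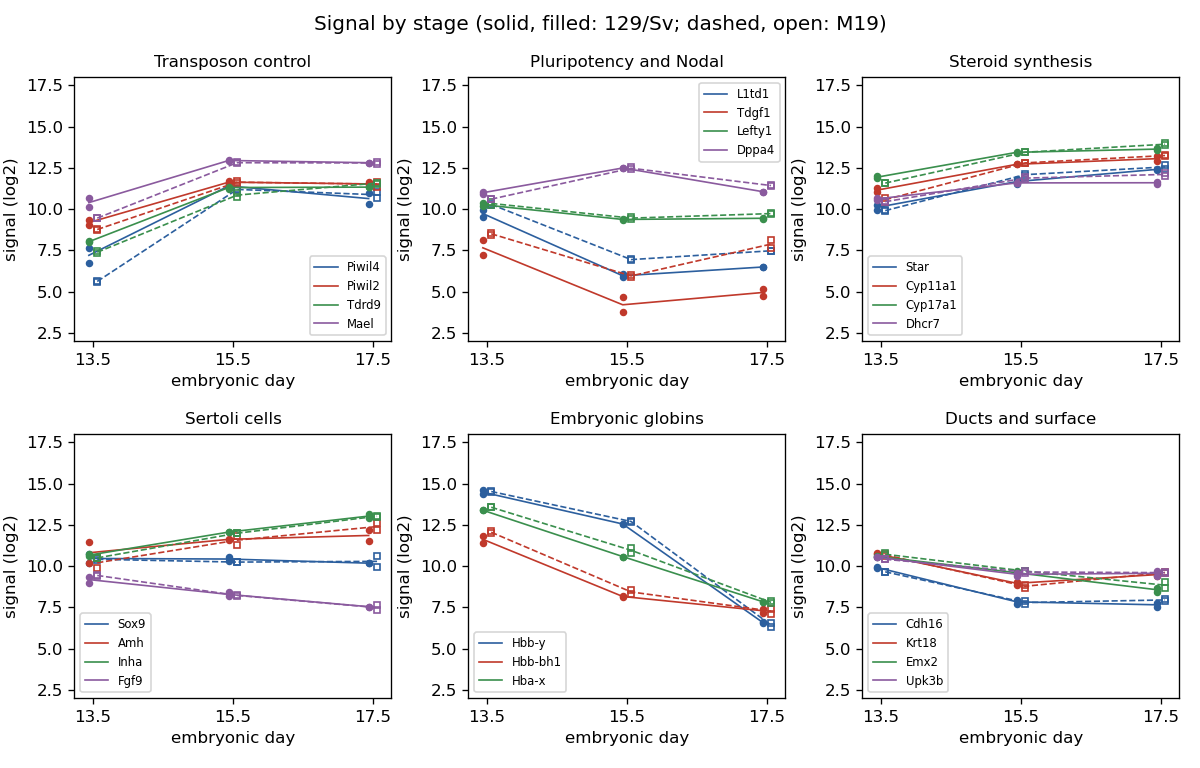
Signal by embryonic day (x axis) on the log2 scale (y axis) for genes of 6 groups, with a point for each of the 2 arrays of a strain and stage and lines through the means, solid with filled circles for 129/Sv and dashed with open squares for M19. Piwil4, Piwil2, Tdrd9 and Mael rise between E13.5 and E15.5 and change less afterwards, Tdgf1 falls to E15.5 in both strains and in M19 is back at 7.88 at E17.5, and the globin genes fall in both intervals.

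Among 10 inhibitors of cyclin-dependent kinases and their partners 2 rose and 1 fell, all by the shared rule, with a median step of 0.12. Without array 2 of 129/Sv at E13.5 the list had 5 called genes. Cdkn2a, which encodes p16 and p19Arf, rose by 1.01 ± 0.11, from between 6.15 and 6.59 to between 7.23 and 7.46. Cdkn1b, the p27 gene known from arrested germ cells, rose by 0.61 ± 0.15 (limma adjusted p = 0.02), a call lost in 5 of 12 leave-one-array-out fits. Cdkn1a, the p21 gene, fell by 0.66 (SE 0.07).

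Of 28 measured genes of replication and mitosis 5 fell and none rose, against 4.52% of all genes. The median step was -0.18. The largest fall was in Ccnd1, the cyclin D1 gene, which fell by 0.92 (SE 0.13), with steps of -1.23 in M19 and -0.60 in 129/Sv, and was not shared. The replication genes Mcm2 and Pcna fell by 0.34 and 0.28, Ccnb2 by 0.33 and Rrm2 by 0.33. Mki67, a marker of cycling cells, was at -0.24 ± 0.08 (limma adjusted p = 0.1). The count of this list is not firm. It was 1 without either array of M19 at E13.5, without array 1 of 129/Sv at E15.5 or without array 2 of M19 at E15.5. It was 2 without array 1 of M19 at E15.5, 3 without array 2 of 129/Sv at E15.5, and 11 after quantile normalization, 10 with limma's trend option and 9 with each gene's probe sets averaged.

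Sertoli cells line the cords and instruct the germ cells. Of 24 measured genes of these cells 13 rose and 3 fell, 11 and 3 by the shared rule, with a median step of 0.36. Sox9, the factor that directs Sertoli cell fate, was at -0.11 ± 0.15 (limma adjusted p = 0.82). Inha, the subunit that turns activins into inhibins, had 10.59 and 10.74 in 129/Sv and 10.48 and 10.52 in M19 at E13.5, and 12.07, 12.06, 12.00 and 11.99 at E15.5. Inha rose by 1.45 ± 0.08 (limma adjusted p = 1.1e-06) and went on to means of 13.04 and 13.02 at E17.5. Serpina5, a protease inhibitor, rose by 1.86 ± 0.08, from between 6.18 and 6.64 to between 7.94 and 8.66, and reached 10.69 and 10.16 at E17.5.

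Hsd17b1, a steroid dehydrogenase that Sertoli cells make in the fetal testis, rose by 1.76 ± 0.08, the related Hsd17b3, which makes testosterone, by 0.75 ± 0.10, and Clu, a secreted chaperone, by 1.06 ± 0.08. Ptgds, which makes prostaglandin D2, rose by 0.73 ± 0.08. Amh, the hormone that removes the female ducts, had 10.16 and 11.46 in 129/Sv and 9.89 and 10.52 in M19 at E13.5, and 11.64, 11.61, 11.30 and 11.85 at E15.5. The stages of Amh overlap, its step was 1.09 ± 0.28 (limma adjusted p = 0.026), and the call was lost in 5 of 12 leave-one-array-out fits. Fgf9, which stabilises Sertoli cell fate and supports early germ cells, had 9.0 and 9.37 in 129/Sv and 9.46 and 9.41 in M19 at E13.5, and 8.16, 8.41, 8.24 and 8.21 at E15.5. Fgf9 fell by 1.06 (SE 0.11; limma adjusted p = 8.8e-05) and stood at 7.54 and 7.48 at E17.5. The tight junction gene Cldn11 fell by 0.86 and Wt1 by 0.53.

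The steroid pathway of the fetal Leydig cell rose in every gene measured. All 10 measured genes of the list rose, 9 by the shared rule, with a median step of 1.16, and all 10 were called in each strain alone. Star, which brings cholesterol into the mitochondrion, had 9.97 and 10.24 in 129/Sv and 9.87 and 9.95 in M19 at E13.5, and 11.51 and 11.83 in 129/Sv and 12.15 and 12.03 in M19 at E15.5. Star rose by 1.88 ± 0.10 (limma adjusted p = 7.8e-07). Cyp11a1, which cleaves the side chain of cholesterol, had 11.03 and 11.27 in 129/Sv and 10.46 and 10.68 in M19 at E13.5, and between 12.71 and 12.82 at E15.5. It rose by 1.91 ± 0.10 (limma adjusted p = 5e-07).

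Cyp17a1, which turns C21 steroids into androgen precursors, had 12.01 and 11.86 in 129/Sv and 11.60 and 11.56 in M19 at E13.5, and 13.43 to 13.46 at E15.5. It rose by 1.69 ± 0.08. Hsd3b1 rose by 1.30 ± 0.08, the lipoprotein receptor gene Scarb1 by 1.37 ± 0.08, Gramd1b, a sterol transporter, by 1.03 ± 0.10, and the electron donor gene Fdx1 by 0.89 ± 0.08. Nr5a1, the nuclear receptor that drives these genes and is also made in Sertoli cells, rose by 0.63 ± 0.08. Cyp11b1, a hydroxylase also known from the adrenal gland, rose by 0.60 in 129/Sv and 1.26 in M19 and was the list's gene outside the shared rule. Among 9 adrenal and chromaffin genes 2 rose and 1 fell, against 9.8% and 4.52% of all genes, and 1 was called with dim probe sets left out. They were Cyp21a1, another adrenal steroid hydroxylase, at 0.90 ± 0.10, Chga at 0.57 ± 0.10 and Chgb, which fell by 0.55.

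The synthesis of cholesterol, the substrate of these enzymes, rose over most of its length. Of 19 measured genes 17 rose and none fell, 16 by the shared rule, with a median step of 0.71. In 129/Sv alone 10 rose and in M19 alone 12. Hmgcs1, near the start of the pathway, rose by 0.71 ± 0.08, Idi1 and Fdps, which build the isoprenoid chain, by 0.78 ± 0.09 and 0.75 ± 0.11, and Fdft1, which joins it to squalene, by 0.69 ± 0.08. Cyp51 and Msmo1, which strip methyl groups from the sterol ring, rose by 0.85 ± 0.10 and 0.80 ± 0.09. Dhcr7, the last enzyme of one branch, had 10.57 and 10.67 in 129/Sv and 10.42 and 10.48 in M19 at E13.5, and 11.61 and 11.57 in 129/Sv and 11.84 and 11.92 in M19 at E15.5, a rise of 1.20 ± 0.08 (limma adjusted p = 3.6e-06). Tm7sf2, a sterol reductase gene on chromosome 19, rose by 1.40 ± 0.11. Srebf2, the transcription factor of the pathway, rose by 0.68 ± 0.15 and Insig1, which restrains it, by 0.79 ± 0.10. Mvk and Mvd stood at 0.31 ± 0.12 and 0.24 ± 0.10 and did not pass the test on their brightest probe sets. The other probe set of Mvd rose by 0.81 ± 0.08 (limma adjusted p = 4.1e-05).

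The 250-base promoters of the Leydig and Sertoli cell genes that rose by the shared rule were searched for AAGGTCA (reverse complement TGACCTT), a site read by Nr5a1, and for AACAAT (reverse complement ATTGTT), a core that Sox proteins read. The table had an entry for 4 of the 9 Leydig genes and for 6 of the 11 Sertoli genes. No entry held AAGGTCA, which was found in 4.17% of measured genes. AACAAT was found in Serpina5, in none of the 4 Leydig genes, and in 7.84% of measured genes. That no match was found says only that these letters are not in these windows.

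Of 12 measured genes of the contractile peritubular cells 6 rose, 6 did not pass the test and none fell, 5 of the rises by the shared rule. The median step was 0.23, and the call of Tpm2, a tropomyosin gene at 0.29, was lost in 11 of 12 leave-one-array-out fits. Dimmer probe sets of Tpm2 stood at 0.49 and 0.79, both called, and at 0.14. Myh11, smooth muscle myosin, had 7.42 and 7.71 in 129/Sv and 7.56 and 7.33 in M19 at E13.5, and 9.06, 9.23, 9.11 and 8.88 at E15.5. It rose by 1.57 ± 0.10 (limma adjusted p = 2.5e-06) and reached 10.26 and 10.02 at E17.5. Actg2 rose by 1.25 ± 0.11, Tagln by 1.05 ± 0.08 and Acta2, smooth muscle actin, by 0.94 ± 0.08.

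Of 18 interstitial genes 4 rose and 3 fell, against 9.8% and 4.52% of all genes, and by the shared rule 2 and 1. Nr2f1, an orphan nuclear receptor of mesenchyme, had 10.85 and 11.18 in 129/Sv and 11.31 and 11.25 in M19 at E13.5, and 8.67 and 8.92 in 129/Sv and 9.43 and 9.31 in M19 at E15.5, and fell by 2.06 (SE 0.10; limma adjusted p = 2.5e-07). Igf1, a growth factor, rose by 0.76 ± 0.11. The matrix gene Postn was low on the M19 arrays of E15.5 (10.35 and 10.04) and not on those of 129/Sv (11.72 and 11.87), and its steps of -1.30 and 0.19 differed (limma adjusted p of the difference 0.013). The count of this list was 4 in all without either array of M19 at E13.5, without array 2 of 129/Sv at E15.5 or without either array of M19 at E15.5. In the basement membrane list of 13 genes 4 rose and 2 fell, against the same shares of all genes. The laminin gene Lama2 led at 0.94 ± 0.08, and 3 genes were called without either array of M19 at E13.5.

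All 3 embryonic globin genes fell. Hbb-bh1 had 11.83 and 11.42 in 129/Sv and 11.99 and 12.12 in M19 at E13.5, and 8.12, 8.20, 8.58 and 8.29 at E15.5. It fell by 3.54 (SE 0.12; limma adjusted p = 3.2e-08). Hba-x had 13.38 and 13.40 in 129/Sv and 13.56 and 13.58 in M19 at E13.5, and 10.58, 10.58, 11.10 and 10.82 at E15.5, and fell by 2.71 (SE 0.08; limma adjusted p = 1.5e-08). Hbb-y fell by 1.87 (SE 0.09; 3.05 on a dimmer probe set) to between 12.55 and 12.74, and further to 6.59 and 6.42 at E17.5.

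Of 11 measured genes of red cells in general 3 rose and none fell. They were Alas2, the first enzyme of haem synthesis in red cells, at 1.04 ± 0.08, the membrane anion exchanger gene Slc4a1 at 0.69 ± 0.13 and Hemgn at 1.27 ± 0.17, which was not shared. The adult globin genes Hba-a1 and Hba-a2 stood at 0.02 ± 0.09 and -0.14 ± 0.23. These are near-identical copies, and their probe sets may not tell them apart. The adult beta globin gene Hbb-b2 was at 0.2 on its brightest probe set, which was not called. A dimmer probe set of Hbb-b2 rose by the shared rule, by 1.36 ± 0.13 (limma adjusted p = 5.4e-05).

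Of 15 endothelial genes 1 rose and 4 fell, all by the shared rule. Over all genes 9.8% rose and 4.52% fell. Vwf, the von Willebrand factor gene, had 7.88 and 8.20 in 129/Sv and 7.80 and 7.94 in M19 at E13.5, and 10.48, 10.45, 10.32 and 10.16 at E15.5, and rose by 2.40 ± 0.09 (limma adjusted p = 6.8e-08). Emcn, an endothelial sialomucin, fell by 1.20 and Kdr, the main VEGF receptor, by 0.83, while Cdh5, the cadherin of vessels, was at 0.07 ± 0.09. Among 16 macrophage genes 1 rose and 3 fell, against these same shares of all genes. In all, 2 were called without array 1 of M19 at E13.5 or array 2 of M19 at E15.5. Lyz2, lysozyme, rose by 0.75 ± 0.08, and the mannose receptor gene Mrc1 fell by 0.68.

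Most measured genes of the mesonephros and its ducts fell. Of 12 measured genes 9 fell and none rose, 7 by the shared rule, with a median step of -0.81. The summed picture was the same on single arrays: the list averaged between 9.45 and 9.57 on the arrays of E13.5 and between 8.49 and 8.73 on those of E15.5. Cdh16, a cadherin of kidney and duct epithelium, had 9.96 and 9.88 in 129/Sv and 9.67 and 9.64 in M19 at E13.5, and 7.96, 7.71, 7.69 and 7.89 at E15.5, and fell by 1.98 (SE 0.09; limma adjusted p = 2.8e-07). The simple epithelial keratin gene Krt18 fell by 1.84, Wfdc2, a secreted protein of duct epithelium, by 1.60, and Emx2, a homeobox gene of the urogenital ridge, by 1.01. Gata3, a duct transcription factor, stood at -0.89 in 129/Sv and -1.96 in M19 and was not shared. Lhx1 fell by 0.39 on its brightest probe set, a call lost in 11 of 12 leave-one-array-out fits. A dimmer probe set of Lhx1 fell by 3.65 (limma adjusted p = 2.4e-06). Epcam stood at -0.08 on its brightest probe set, which was not called, and fell by 1.85 on a dimmer one (limma adjusted p = 3.9e-07). The part of dissection in these falls was not tested.

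Of 8 genes of the coelomic surface epithelium 5 fell and none rose on their brightest probe sets, all 5 by the shared rule. The median step was -0.61. Lhx9 went the other way: it stood at 0.27 on its brightest probe set, which did not pass the test. Dimmer probe sets of Lhx9 rose by the shared rule, by 0.53 and 0.31 (limma adjusted p = 0.043 and 0.048), and another stood at 0.62 and was not called. In 129/Sv alone 5 fell and in M19 alone 2. Upk3b, a uroplakin of mesothelium, fell by 0.90 (SE 0.09) and Krt7 by 0.80. Among 11 genes that promote the ovary, Wnt4 fell by 0.55 (SE 0.08) and Irx5 rose by 0.50 in the mean but by 0.92 in 129/Sv and 0.09 in M19. Without array 2 of M19 at E13.5 only Wnt4 was called. Foxl2, which keeps ovarian identity, was at -0.27 ± 0.13 (limma adjusted p = 0.28).

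Retinoic acid, which prompts meiosis in the ovary and is degraded in the testis, had more falls than rises among its genes. Of 15 measured genes 1 rose and 6 fell, all by the shared rule, with a median step of -0.14. Rarb, a receptor gene that retinoic acid itself switches on, had 8.80 and 9.08 in 129/Sv and 8.90 and 9.07 in M19 at E13.5, and 7.40, 7.80, 7.29 and 7.39 at E15.5. Rarb fell by 1.49 (SE 0.11; limma adjusted p = 5.8e-06). Stra6, which takes retinol into cells, fell by 1.39 (SE 0.09). Among the enzymes, Aldh1a3, Rdh10 and Aldh1a2 fell by 0.95, 0.72 and 0.68, and Aldh1a1 rose by 0.66 ± 0.08. Cyp26b1, which breaks retinoic acid down in the fetal testis, was at 0.34 ± 0.14 (limma adjusted p = 0.18).

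Growth genes of the embryo fell in part. Hmga2, an architectural DNA-binding protein of proliferating embryonic tissue, had 13.45 and 13.35 in 129/Sv and 13.43 and 13.38 in M19 at E13.5, and 11.06 and 11.11 in 129/Sv and 11.51 and 11.68 in M19 at E15.5. It fell by 2.06 (SE 0.10; limma adjusted p = 2.2e-07), and its E17.5 means were 9.36 and 9.54. Of 5 measured oncofetal genes 2 fell, against 4.52% of all genes, and this count was 1 to 4 when single arrays were left out. It was 4 without array 2 of 129/Sv at E13.5, and 1 without either array of M19 at E13.5, array 2 of 129/Sv at E15.5 or array 1 of M19 at E15.5. Igf2bp3 was not called on its brightest probe set, at -0.27. Dimmer probe sets of Igf2bp3 fell by the shared rule, at -0.43, -0.58, -0.66 and -0.59, and another stood at -0.26 and was not called. The insulin-like growth factor gene Igf2 fell by 0.52 (SE 0.08) and Peg3 by 0.27, 2 of 13 imprinted growth genes, against 4.52% of all genes. The call of Peg3 was lost in 11 of 12 leave-one-array-out fits, though 2 further probe sets of Peg3 fell by the shared rule, by 0.63 and 0.41 (limma adjusted p = 0.00098 and 0.03). Igf2r and Plagl1 were not called on their brightest probe sets. A dimmer one of each fell by the shared rule, at -0.51 and -0.86 (limma adjusted p = 0.0049 and 0.00082). Another of Plagl1, at -0.13, and a dimmer one of Igf2, at -0.42, were not called. That list had 4 called genes without array 2 of 129/Sv at E13.5 and 1 without any other single array except array 1 of 129/Sv at E13.5 or array 2 of 129/Sv at E15.5.

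Of 12 immediate early genes, which respond to handling as well as to growth factors, 3 rose and 2 fell, against 9.8% and 4.52% of all genes. Egr1 led the rises at 0.78 ± 0.11. The number called was 2 without either array of M19 at E13.5 or array 2 of M19 at E15.5, and 3 without array 2 of 129/Sv or array 1 of M19 at E15.5.

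**Figure D4:**
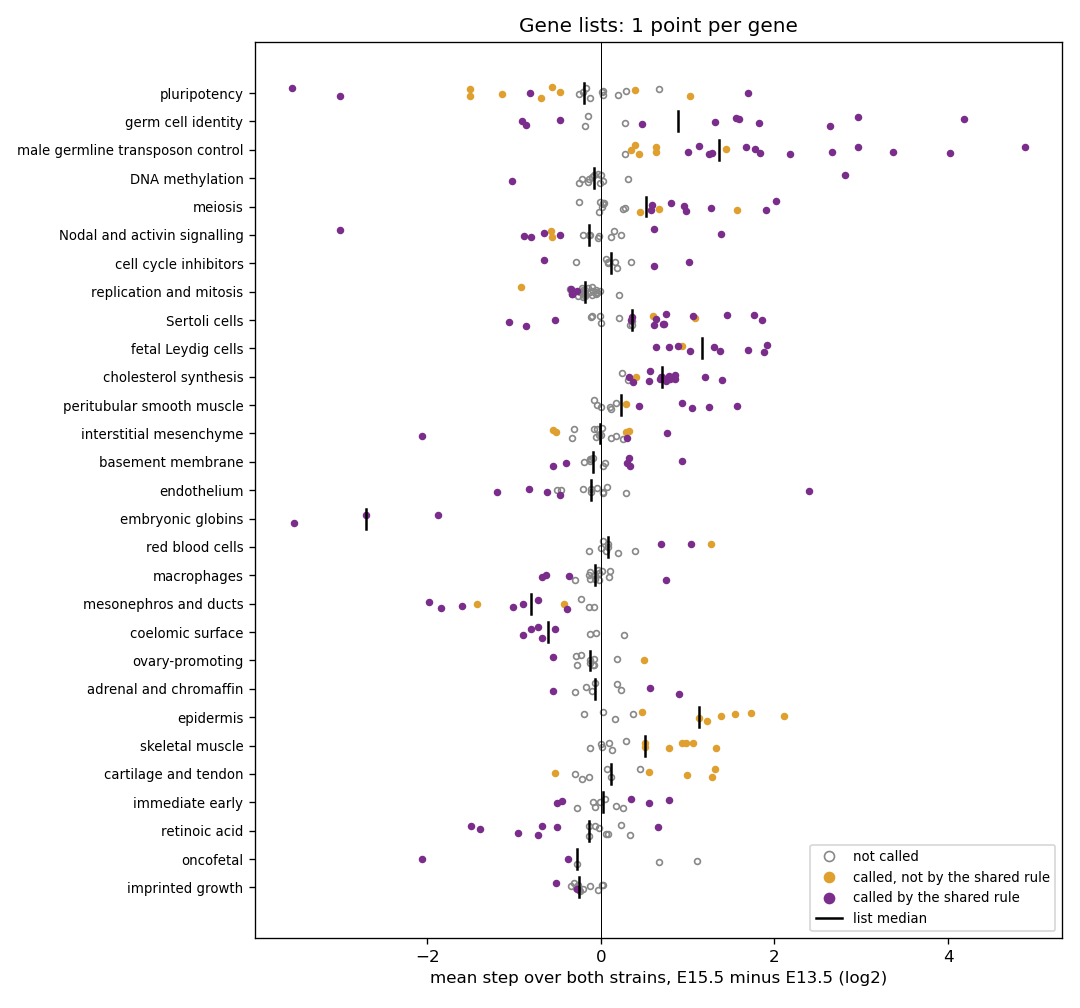
Mean step over both strains (x axis, E15.5 minus E13.5, log2) for each measured gene of 29 lists (rows, 1 point per gene), open grey where not called, yellow where called but not shared, purple where shared, with a bar at the list median. The transposon control list (median 1.36) and the fetal Leydig list (1.16) lie to the right, the embryonic globins (-2.71) and the duct list (-0.81) to the left, and the epidermis and skeletal muscle lists have no purple point.

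Genes of skin, muscle and cartilage rose in 129/Sv and not in M19. Of the 35 measured genes of these lists 18 rose and 1 fell in the mean of the strains, 21 rose in 129/Sv, and limma called 0 higher and 3 lower in M19, where 2 were higher and 9 lower at an unadjusted p under 0.05. The shared rule kept 0 of the 35, of which 21 were higher and 2 lower over both strains at an unadjusted p under 0.05. Krt1, an epidermal keratin, had 8.02 and 7.69 in 129/Sv and 7.70 and 7.73 in M19 at E13.5, and 11.30 and 11.39 in 129/Sv but 7.64 and 7.74 in M19 at E15.5. Actc1, a sarcomeric actin, had 10.63 and 10.80 in 129/Sv at E15.5 and between 7.21 and 8.09 on the other 6 arrays of these stages. These genes move with the 129/Sv step, and their part in the other results was not tested. On the M19 arrays of E15.5 the epidermal genes averaged 8.44 and 8.37, and on those of E13.5 8.56 and 8.53. The M19 step, with its spread estimated over the arrays of both strains, called 2461 probe sets (5.46%). It called 938 to 1291 without 1 of its 4 arrays of these stages. The transposon, Leydig, duct and globin lists had 19, 10, 8 and 3 genes called in M19 in the directions given above.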

How the data were processed

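The table analysed holds log2 values, as deposited by the authors, for 12 arrays and 45101 probe sets. The summarization method, the normalization and the log base are not given in the sources used here, and the range of the values was taken as log2. Without the 64 manufacturer's controls, 45037 probe sets were tested. Probe sets were named through the platform's annotation: 34945 had 1 gene, 932 had several and 9160 had none, and a gene was read from the probe set with the highest mean over 12 arrays. A model with 6 group means was fitted with limma (version 3.58.1, R 4.3.3), and the step was the mean of the strain steps, tested two-sided with Benjamini-Hochberg adjustment. The fit was tested on simulated data.

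The genes named as largest were the 12 highest and 12 lowest by the shared rule whose higher stage mean exceeded the median. Genes of the lists were added. The members and lists were chosen with earlier results of these data known. Promoter sequences are from the RefSeq table of GRCm38.p6. Replicate numbers shared between groups were checked and were not taken as pairs. On arrays, the number of arrays per group limits the precision. The alternatives were other normalizations, fits, filters, a size threshold, and leaving out each array.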

Additional observations from a re-analysis of the deposited data

Results flagged for a closer look

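The step differed between the strains, by limma's test of the difference itself (adjusted p under 0.05), in 22 of the genes named or listed. Values are the M19 step minus the 129/Sv step on the log2 scale. In the germ line it was positive for Nxf2 (1.29), Morc1 (1.52) and Sycp1 (1.09), where M19 rose more, and for Dppa5a (1.48), where M19 fell less. It was -1.48 for the matrix gene Postn, whose step was 0.19 in 129/Sv and -1.30 in M19, and -1.44 for Crabp1, a retinoic acid binding protein, with 0.58 and -0.86.

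The other 16 belong to skin, muscle, cartilage and tendon. Among epidermal genes the difference was -3.51 for Krt1, -2.81 for Krt5, -2.56 for Krt10, -3.07 for Krt15, -4.09 for Perp and -3.21 for Krtdap. Among muscle genes it was -3.45 for Actc1, -1.64 for Acta1, -2.69 for Myh3, -1.81 for Myh8, -1.32 for Tnnc2, -2.09 for Myl1 and -2.09 for Mylpf. For Col2a1, Tnmd and Kera it was -2.51, -2.45 and -2.90. These genes were high on both arrays of 129/Sv at E15.5. With 2 arrays per group, no array could be checked as an outlier within its group.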

How the results depend on the processing

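The counts of called probe sets depended most on single arrays and on a size threshold. Leaving out 1 array at a time gave 2863 to 5551 for the step over both strains, 2440 to 4195 for the shared rule, 1230 to 2739 for 129/Sv, 938 to 3242 for M19, 28 to 77 for the difference between strains and 159 to 204 for the list genes (196 with all arrays). With a step of at least 1 log2 unit required, the counts were 660, 594, 664 and 731 for the first 4 of these, and 78 for the list genes. The difference between strains was called in 22 probe sets when only those with a mean above the median were tested and in 29 with the 8 arrays alone. The M19 step of the main fit, taken as an alternative after seeing the data, called 2461. This is not a separate fit of the M19 arrays, because its spread was estimated over the arrays of both strains. The count was 3242 without either array of 129/Sv at E13.5. Of 135 alternative counts 111 were within 1.5 times the reported one. The cause of these shifts was not tested, beyond the fewer arrays or the stricter threshold.

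With the replicate number as a block, 5010 probe sets were called for the step (3163 higher, 1847 lower). Same-numbered arrays correlated at -0.373 to 0.539 in their deviations from the group means. Some pairs of groups were positive and others negative, so the numbers were not taken as pairs. Quantile normalization called 5626 and median centring 4747. Of 213 called genes named or listed, 171 kept the call in all leave-one-array-out fits, 158 in all other settings, and 0 reversed. All 24 named genes, which were chosen for large steps on the same arrays, kept theirs throughout. Signal over background could not be assessed from the deposited values.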

Other observations

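Genes outside the lists also moved by the shared rule, and those here were chosen after their values were seen. Sohlh1 and Sohlh2, paired transcription factors of spermatogonia, went opposite ways: Sohlh1 rose by 2.95 ± 0.08 (limma adjusted p = 8.3e-09) and Sohlh2 fell by 1.70 (SE 0.09; limma adjusted p = 8e-07). Sohlh1 had group means of 7.18 in 129/Sv and 6.73 in M19 at E13.5 and of 9.99 and 9.81 at E15.5. Sohlh2 had 9.78 and 9.96 at E13.5 and 7.84 and 8.51 at E15.5. Tex15, which acts in piRNA-directed silencing, rose by 2.94 ± 0.11 (limma adjusted p = 4.2e-08), to means of 12.14 and 12.07. S100a8 and S100a9, the subunits of calprotectin known from neutrophils, rose by 2.29 ± 0.11 and 2.52 ± 0.09. Cst12, a testicular cystatin, rose by 2.33 ± 0.11 and went on to 12.13 and 11.56 at E17.5. Itga8, an integrin of urogenital mesenchyme, fell by 2.12 (SE 0.12; limma adjusted p = 8.3e-07).

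The X chromosome held 3.42% of the 18032 genes with a known place. It held 3.76% of the genes that rose by the shared rule, 8.37% of those that rose by at least 1 log2 unit (22 of 263), 15.2% of those that rose by at least 2 (7 of 46), and 5 of the 12 named rises. Among the shared falls it held 5.53%, and 8.11% of those of at least 1 log2 unit. This is a description with no test.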
